A study of Mus musculus with 8 samples.

Results

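Cholecystokinin and its receptors were described in the thoracic aorta of mice without and with Fto, which encodes an RNA demethylase. The genes are Cck, which encodes the peptide hormone, and Cckar and Cckbr, which encode its type A and type B receptors. The members were selected by annotation, as every probe of the array whose identifier was a RefSeq transcript of 1 of the 3 genes, and the family itself was chosen from earlier results of these arrays. This gave 3 of 21368 named genes and 4 of the 55681 probes: 1 for Cck, 1 for Cckar and 2 for Cckbr. The measured levels of these genes and their difference between genotypes therefore chose the family, and those values stand here as a description, with no test.

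The study set 4 Fto -/- against 4 Fto +/+ samples, all of thoracic aorta and all labelled as male mice of a C57BL6J/NMRI background. Age, the construction of the Fto allele and any pooling of animals are not given in the sources used here. RNA of each sample, with an integrity number above 8 per the design text, was labelled with 1 dye and hybridised to its own array. Nothing in the labels says that the samples came from separate animals, so the spread between them may be partly technical. The free-text description of every sample named the genotype opposite to its title and genotype label, and the groups follow the title. Fto went with the titles. Its processed intensity was 65, 70.1, 49.9 and 49.2 on the Fto -/- arrays, against 567, 751, 530 and 409 on the Fto +/+ arrays (8.47-fold lower, exact two-sided permutation p = 0.0286, the smallest that 4 against 4 arrays can give; limma adjusted p = 0.000403). Its log2 difference of -3.08 was -1.96 with another background correction, normexp on median signals. Both Xist probes were well above background on all 8 arrays. The Y-linked Ddx3y, Kdm5d and Eif2s3y were so on 0 arrays and Uty, with 1 of its 2 probes, on 1 array, which goes against the label of male mice. The 75th percentile of intensity ran from 295 to 374 on Fto -/- and from 320 to 416 on Fto +/+ arrays. All 6 smooth muscle markers, Acta2 and Myh11 among them, were well above background on all 8 arrays.

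Cholecystokinin is made as a longer precursor that convertases cut, carboxypeptidases trim, tyrosylprotein sulphotransferases sulphate and an amidating enzyme finishes. Endocrine cells of the upper intestine release it after a meal, where it drives gallbladder contraction, pancreatic secretion and satiety, and many neurons of the brain use it as a transmitter. The type A receptor prefers the sulphated peptide, the type B receptor also binds gastrin, and both signal mainly through Gq, phospholipase C and release of calcium.

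The stretches before the starts of Cck and Cckbr are shown because in these arrays the first gene was read far above background and the second was not. They are the 250 bases 5′ of the RefSeq start in build GRCm38.p6, and 2 of the 3 genes matched the promoter table. Capitals mark matches to 4 motifs searched on both strands: the E-box CACGTG, the combined cyclic AMP and phorbol ester response element TGCGTCA described for Cck, the consensus cyclic AMP response element TGACGTCA and the GC box GGGCGG.
Cck, chr9:121495695-121495944, minus strand: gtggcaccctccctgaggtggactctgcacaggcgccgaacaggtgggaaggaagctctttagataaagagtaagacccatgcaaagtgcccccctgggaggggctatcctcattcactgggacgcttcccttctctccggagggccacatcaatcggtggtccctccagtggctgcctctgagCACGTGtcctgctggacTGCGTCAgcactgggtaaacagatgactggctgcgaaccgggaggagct
Cckbr, chr7:105425481-105425730, plus strand: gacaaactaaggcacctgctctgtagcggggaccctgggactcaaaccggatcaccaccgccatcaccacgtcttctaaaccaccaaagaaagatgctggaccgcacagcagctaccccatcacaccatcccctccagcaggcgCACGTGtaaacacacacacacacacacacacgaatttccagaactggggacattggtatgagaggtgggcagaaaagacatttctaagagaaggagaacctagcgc
The Cck stretch held the E-box at bases -66 to -61 and TGCGTCA at bases -49 to -43, counted back from the start. It held no match to the GC box or to the consensus cyclic AMP response element. The Cckbr stretch held the E-box at bases -106 to -101 and no other match. Over 32851 promoter stretches of the same length, 6.02% held the E-box, 1.75% held TGCGTCA, 1.55% held TGACGTCA, 32.7% held the GC box and 57 (0.174%) held both the E-box and TGCGTCA. A match describes letters in this window and no binding was measured.

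Cck, the gene of the hormone, was read by 1 probe (A_55_P1977431, transcript NM_001284508) that was well above background on all 8 arrays and saturated on 0. Its processed intensity was 1824, 1461, 1568 and 1720 on Fto -/- arrays 1 to 4, against 623.7, 670.9, 524.5 and 457.3 on Fto +/+ arrays 1 to 4. Every Fto -/- array was higher than every Fto +/+ array. Mean intensity was 1643 ± 161 in Fto -/- and 569.1 ± 96.3 in Fto +/+ samples (SD, n = 4 each), a coefficient of variation of 9.77% and 16.9%. These intensities were 13.1 to 75.4 times the lowest signal that counted as well above background on the same array.

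Levels were then scaled as the log2 intensity minus the log2 of the 75th percentile of the array. On that scale Cck stood at 2.28, 2.19, 2.41 and 2.36 in Fto -/- samples and at 0.73, 0.69, 0.46 and 0.51 in Fto +/+ samples. The means were 2.31 ± 0.09 in Fto -/- and 0.6 ± 0.13 in Fto +/+ (SD, n = 4 each). The log2 difference was 1.71 ± 0.08 (SE), a level 3.28-fold higher in Fto -/-. The lowest Fto -/- array lay 1.46 above the highest Fto +/+ array on the log2 scale, so the fold over the 16 pairs of arrays ran from 2.75 to 3.87. No overlap with the Fto -/- arrays higher held for 4.74% of the 25292 probes tested over the whole array, and 68 of them (0.269%) had no overlap and a difference at least that of Cck. These shares are given beside Cck and nothing is read from them, since this contrast chose the gene.

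**Figure D1:**
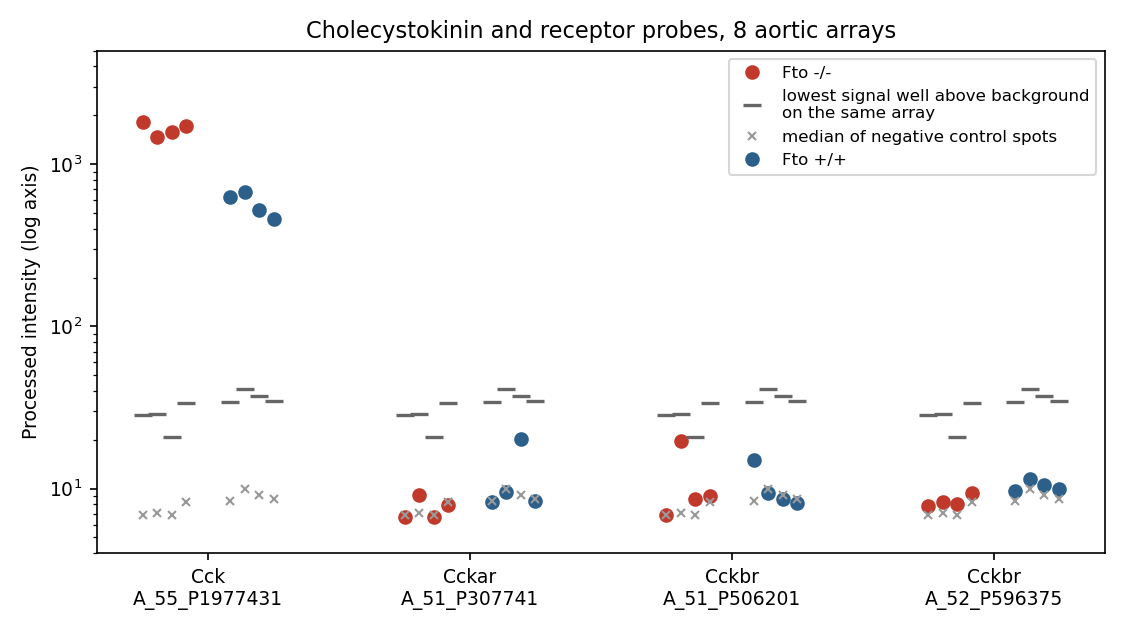
Processed intensity (log axis) of the Cck, Cckar and Cckbr probes on the 4 Fto -/- (left) and 4 Fto +/+ arrays (right). Points are arrays, dashes the lowest signal well above background on the same array and crosses the median of its negative control spots. Cck lies between 457.3 and 1824 with no overlap of genotypes, and all receptor values lie under the dashes.

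Cckar, the gene of the type A receptor, was well above background on 0 of the 8 arrays. Its probe (A_51_P307741, NM_009827) read 6.662, 9.076, 6.657 and 7.958 on Fto -/- arrays and 8.226, 9.579, 20.1 and 8.356 on Fto +/+ arrays. The genotypes overlapped, and Fto +/+ replicate 3 stood above the other 7 arrays. Even there the probe had 54% of the lowest signal well above background on that array, and 7 of 308 negative control spots were at least as bright.

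Cckbr, the gene of the type B or gastrin receptor, was well above background on 0 arrays with either probe. Probe A_51_P506201 (NM_007627) read 6.835, 19.63, 8.632 and 9.024 on Fto -/- arrays and 14.95, 9.344, 8.596 and 8.195 on Fto +/+ arrays. The genotypes overlapped, with Fto -/- replicate 2 and Fto +/+ replicate 1 the brightest. On Fto -/- replicate 2, 0 of the 308 negative control spots reached the probe's intensity, which was 67.7% of the lowest signal well above background there. Probe A_52_P596375, of the same transcript, read 7.868 to 9.359 on Fto -/- and 9.604 to 11.47 on Fto +/+ arrays, while the median of the negative control spots ran from 6.87 to 8.28 on Fto -/- and from 8.41 to 9.96 on Fto +/+ arrays. This probe was dimmer on every Fto -/- than on every Fto +/+ array, as were those medians, and after scaling its levels overlapped. The 2 Cckbr probes did not pick out the same arrays. No fold is given for either receptor, since both genotypes were below the detection call, which bounds the signal and does not show that the genes are silent.

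Under other settings the Cck difference was 1.64 when arrays were scaled to their median, 1.74 after quantile normalisation and 1.74 in the deposited series table, whose centred log2 values for Cck were 0.82, 0.74, 0.99 and 0.91 in Fto -/- and -0.74, -0.8, -1 and -0.94 in Fto +/+ samples. Leaving out 1 array at a time gave 1.66 to 1.76. Slide row was uneven between genotypes, with Fto -/- replicates 1, 2 and 3 and Fto +/+ replicate 1 in row 1. The difference was 1.68 with row as a block, 1.56 within row 1 (3 Fto -/- against 1 Fto +/+ array) and 1.8 within row 2 (1 against 3). Over these and the remaining settings without covariates, 19 in all, it ran from 1.54 to 1.8, or 2.91-fold to 3.48-fold.

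**Figure D2:**
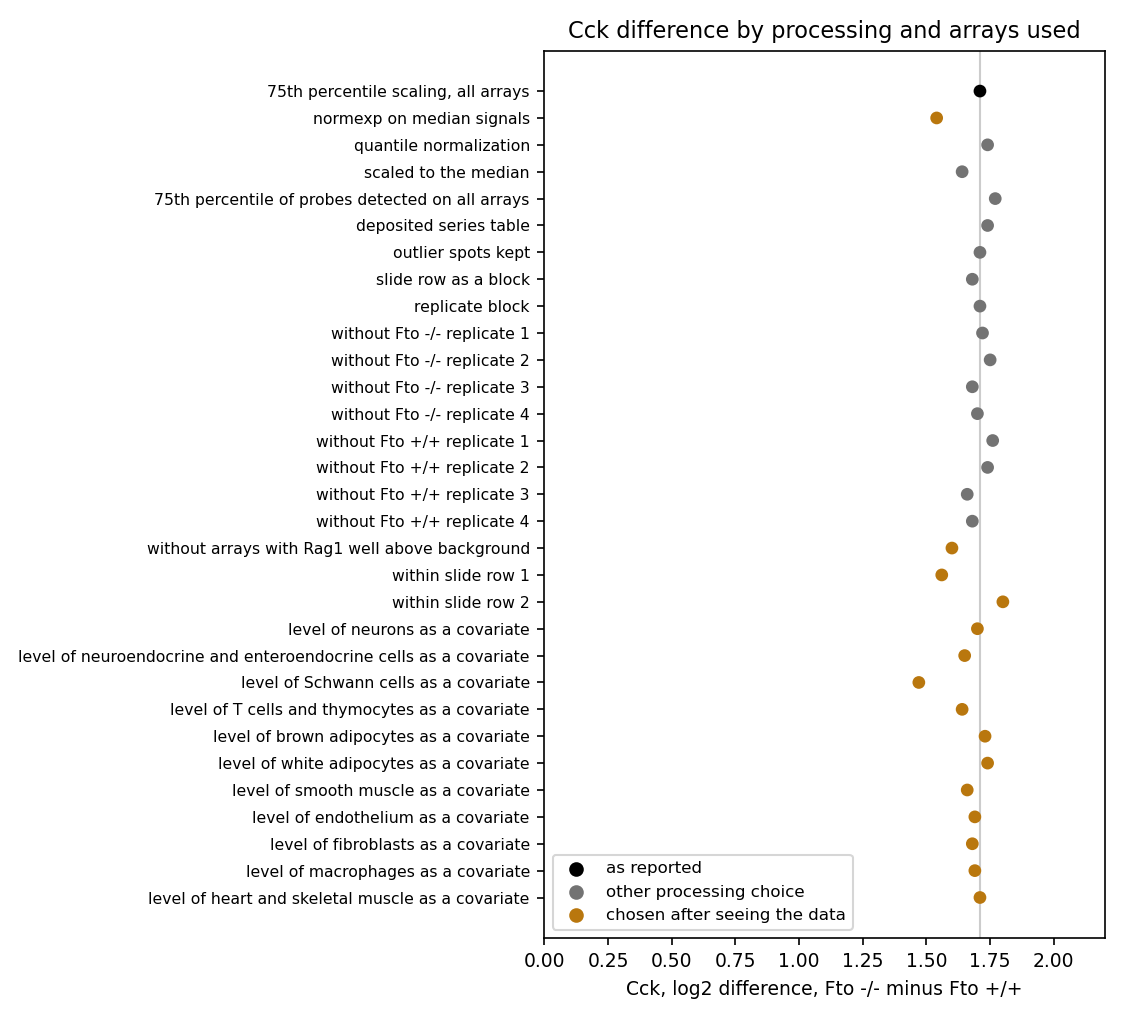
Log2 difference of Cck, Fto -/- minus Fto +/+, by setting (rows), with the reported value in black, other processing choices in grey and settings chosen after seeing the data in orange. All points lie between 1.47 and 1.8; the lowest has the Schwann cell marker level as a covariate.

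Cells other than smooth muscle could enter an aortic sample, and in such bulk samples fewer cells of a type and less RNA per cell cannot be told apart. Marker levels are the mean of a list's measured genes, each centred over the 8 arrays. Schwann cell markers were the list of the 11 whose genotypes did not overlap, at 0.05 to 0.5 on Fto -/- and -0.58 to 0 on Fto +/+ arrays. It rested on 3 of 6 markers, Mbp and S100b among them, with a summed intensity of 20000 to 30200 on Fto -/- and 13400 to 23500 on Fto +/+ arrays. The defining markers Sox10 and Cdh19 were well above background on 0 arrays. With this level as a covariate the Cck difference was 1.47. S100b, the gene of a calcium-binding protein, differed by 0.71 ± 0.26 and Mbp, that of myelin basic protein, by 0.47 ± 0.25 (SE, limma adjusted p = 0.198 and 0.35), so neither passed. The other tested Mbp probe, which did not enter the list level, differed in the opposite direction, by -0.55.

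Neuron markers, 8 of 12 measured, stood at -0.39 to 0.29 in Fto -/- samples, against -0.43 to 0.07 in Fto +/+ samples, with Tubb3, Prph and Dbh well above background on 0 arrays. Their summed intensity was 20400 to 23000 on Fto -/- and 14700 to 24100 on Fto +/+ arrays. Of the 8 neuroendocrine and enteroendocrine markers, which include those of the gut cells that secrete cholecystokinin, Scg3 and Syp were measured. Chga, Chgb, Neurod1 and Tph1 were well above background on 0 arrays. That list stood at -0.19 to 0.55 in Fto -/- samples, against -0.59 to 0.08 in Fto +/+ samples. Its summed intensity was 808 to 1240 on Fto -/- and 860 to 1120 on Fto +/+ arrays. With the neuron and the neuroendocrine level as a covariate in turn, the Cck difference was 1.7 and 1.65.

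Brown adipocyte markers, 5 of 6 measured with Ucp1 on all 8 arrays, stood at -0.28 to 1.84 in Fto -/- samples, against -1.82 to -0.05 in Fto +/+ samples. Their summed intensity was 29200 to 139000 on Fto -/- and 13500 to 36500 on Fto +/+ arrays. T cell and thymocyte markers, 8 of 10 measured, stood at -1.22 to 1.79 in Fto -/- samples, against -1.68 to 1.59 in Fto +/+ samples. Their summed intensity was 1400 to 3730 on Fto -/- and 1480 to 4390 on Fto +/+ arrays. Both lists spread widely within each genotype. The brown adipocyte level had a mean difference of 1.71, Fto -/- minus Fto +/+. Of its 5 measured genes, Cidea and Cox7a1 were higher on every Fto -/- than on every Fto +/+ array. Ucp1, Cox8b and Dio2 overlapped, and Dio2 differed by -0.07. The Cck level spanned 0.22 in Fto -/- and 0.28 in Fto +/+ samples. With these levels as covariates the Cck difference was 1.73 (brown adipocytes) and 1.64 (T cells). Rag1, a thymocyte gene, was well above background with at least 1 of its 2 probes on 5 arrays. Without those 5 arrays the Cck difference was 1.6, from 1 Fto -/- and 2 Fto +/+ arrays. Fto +/+ replicate 4 was among the 5 left out through the other probe alone, since the tested Rag1 probe read 7.76 there. The T cell and thymocyte level of that array was -1.2. Over all 11 marker lists as covariates the Cck difference was 1.47 to 1.74, and their part in the result was not tested.

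**Figure D3:**
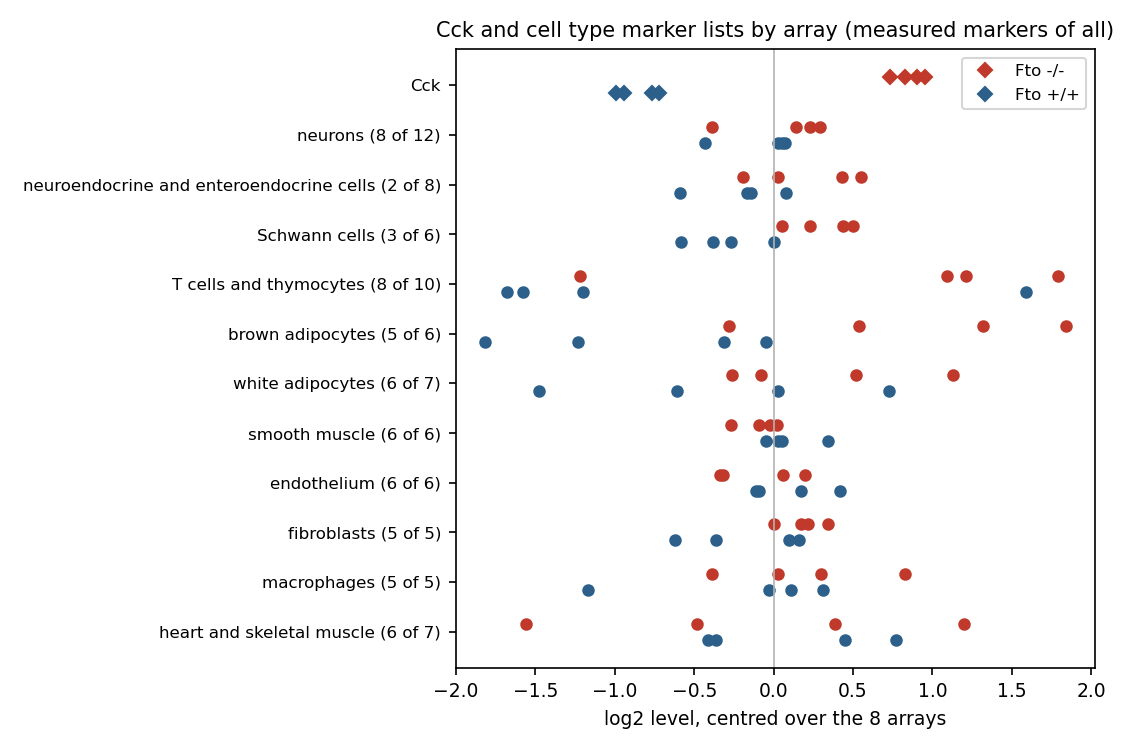
Level of Cck (diamonds) and of 11 marker lists (circles, log2, centred over the 8 arrays), with Fto -/- arrays drawn above Fto +/+ arrays in each row and the number of measured markers in brackets. The genotypes are apart for Cck and, narrowly, for the Schwann cell list, and overlap in the other 10.

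The other genes of the pathway were read from 7 lists, chosen with earlier results of these arrays known, and tested with limma over all 25292 probes that were well above background on at least 4 arrays. Over the array 419 probes passed an adjusted p of 0.05 (1.66%), 213 higher (0.842%) and 206 lower (0.814%) in Fto -/-. That split was 273 and 155 when arrays were scaled to probes detected on all of them. Of 86 listed genes 60 were measured, and 0 rose and 0 fell (15 of 60, or 25%, at an unadjusted p under 0.05, against 19% of all probes). The genotypes did not overlap for 14 of the 60 genes (23.3%, against 12.1% of all probes, 4.74% higher and 7.35% lower in Fto -/-). These genes went in both directions, and Mme among them rests mostly on Fto +/+ values below detection. Each listed gene was read by its probe of highest mean, while the shares of all probes cover every tested probe, so the sets are unlike. The same 19% of all probes stands beside the count at an unadjusted p under 0.05 of each list below. The median log2 difference over all probes was -0.02.

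Of the genes that turn the precursor into active peptide, 12 of 13 were measured and 0 passed in limma (2 at unadjusted p under 0.05; median log2 difference -0.01). The convertase gene Pcsk1 was well above background on 0 arrays. Pcsk2, a convertase used in neurons, was so on all 8 with 1 of its 2 probes (difference 0.07 ± 0.13 SE). Tpst2, a tyrosine sulphotransferase gene, read 566, 546, 390 and 552 on Fto -/- arrays, against 745, 884, 690 and 595 on Fto +/+ arrays. Its level did not overlap between genotypes, with a log2 difference of -0.33 ± 0.11 (SE, limma adjusted p = 0.159). Scg5, which encodes the chaperone of the Pcsk2 convertase, differed by 0.7 ± 0.28 (SE, limma adjusted p = 0.229) and overlapped. The amidating enzyme gene Pam differed by 0.63 ± 0.45 and the carboxypeptidase gene Cpe by -0.14 ± 0.09 (SE). The other Cpe probes differed by -0.58 to -0.19.

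All 6 genes of peptide degradation were measured and 0 passed in limma with the probe that stood for each gene (1 at an unadjusted p under 0.05; median 0.16). Mme encodes neprilysin, a membrane peptidase that cleaves cholecystokinin among other peptides. The probe of higher mean read 73.8, 52.1, 62.7 and 93 on Fto -/- arrays, against 58.2, 34.6, 48.8 and 30.3 on Fto +/+ arrays, where 1 array was well above background. It met the filter through the Fto -/- arrays, so its fitted log2 difference of 0.9 ± 0.23 (SE, limma adjusted p = 0.0923) rests mostly on Fto +/+ values below detection. The second Mme probe was well above background on 4 Fto -/- and 0 Fto +/+ arrays and at least 1.74-fold higher, a lower bound set by the detection limit of the Fto +/+ arrays. It entered the test only through the Fto -/- arrays, so its limma adjusted p of 0.0264 uses Fto +/+ values below detection and is not read as a call. The first Mme probe differed by 0.76 to 1.06 without 1 array at a time and by 0.88 with slide row as a block. It differed by 0.29 within row 1 and by 1.47 within row 2. Without the arrays where either Rag1 probe was well above background, Fto +/+ replicate 4 among them, it differed by 0.21. That value came from 1 Fto -/- and 2 Fto +/+ arrays. Ace, the angiotensin-converting enzyme gene, differed by 0.36 ± 0.19 (SE, adjusted p = 0.33), and by 0.19 without Fto +/+ replicate 4.

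Of the genes of Gq, phospholipase C and calcium release, 14 of 15 were measured and 0 passed in limma (median -0.17, range -0.42 to 0.77). Of the 14, 6 had an unadjusted limma p under 0.05, against 19% of all probes. These were Gnaq, Gna11, Plcb3, Itpr1, Prkca and Prkcd, all 6 lower in Fto -/-. Plcb3, a phospholipase C gene, read 2630, 2510, 1800 and 2350 on Fto -/- arrays, against 3330, 3780, 3340 and 3090 on Fto +/+ arrays. Its level was lower on every Fto -/- array, by -0.38 ± 0.1 on the log2 scale (SE, limma adjusted p = 0.0992). Gnaq, the gene of the G protein that both receptors use, had a mean level of 1.96 ± 0.05 in Fto -/- and 2.18 ± 0.01 in Fto +/+ samples (SD, n = 4 each), a difference of -0.22 ± 0.08 (SE, limma adjusted p = 0.184). Of 11 genes that end receptor signalling 10 were measured and 0 passed (3 at an unadjusted p under 0.05; median -0.12). Arrb2, the gene of an arrestin that uncouples receptors, read 241, 175, 179 and 221 on Fto -/- arrays, against 430, 338, 401 and 248 on Fto +/+ arrays. It differed by -0.61 ± 0.15 (SE, limma adjusted p = 0.0818) and its levels did not overlap. The regulator of G protein signalling gene Rgs4 differed by 0.56 ± 0.18 (SE, adjusted p = 0.153) with 1 probe and by -0.05 with the other.

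Of 11 factors described at the Cck promoter, 10 were measured and 0 passed in limma (1 at unadjusted p under 0.05; median -0.15). The list covers factors of cyclic AMP, E-box and GC elements. Binding to the exact letters searched above was not tested, and the Cck stretch held no match to the GC box. Sp1, which binds GC boxes, differed by -0.25 ± 0.1 and Crem, of the cyclic AMP family, by 0.23 ± 0.12 (SE, limma adjusted p = 0.239 and 0.341). Without Fto +/+ replicate 4 the Crem difference was 0.14. Creb1 differed by -0.03 ± 0.14, the E-box factor genes Usf1 and Usf2 by -0.08 ± 0.12 and -0.3 ± 0.17, and Fos by -0.75 ± 0.65 (SE). Neurod1 was well above background on 0 arrays.

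Among 20 genes of other gut and brain peptides 5 were measured, and 11 were well above background on 0 arrays, among them gastrin (Gast), neuropeptide Y (Npy), peptide YY (Pyy) and vasoactive intestinal peptide (Vip). Of the 5 measured genes 0 passed in limma (2 at unadjusted p under 0.05; median 0.61). Penk, which encodes the enkephalin precursor, read 4460, 1820, 2120 and 2850 on Fto -/- arrays, against 1580, 1150, 2070 and 500 on Fto +/+ arrays. Its levels did not overlap between genotypes after scaling but varied within them, at 3 ± 0.45 in Fto -/- and 1.66 ± 0.79 in Fto +/+ (SD, n = 4 each). The log2 difference was 1.35 ± 0.38 (SE, limma adjusted p = 0.118). This Penk difference was 1.01 to 1.61 without 1 array at a time and 1.23 with slide row as a block. It was 0.9 within row 1 and 1.57 within row 2. Without the arrays where either Rag1 probe was well above background, Fto +/+ replicate 4 among them, it was 0.25. That value came from 1 Fto -/- and 2 Fto +/+ arrays. Ghrl, the ghrelin gene, differed by 0.61 ± 0.24 (SE, limma adjusted p = 0.224), with 3 of 4 Fto +/+ arrays well above background. It read 79.6 on Fto -/- replicate 2, against 41.9 to 44.4 on the other Fto -/- arrays, and without that array the difference was 0.37. Of the 10 appetite receptors, Lepr, Npy1r and Insr were measured and 0 passed (0 at an unadjusted p under 0.05). Npy1r differed by -0.38 ± 0.25 and the leptin receptor gene Lepr by 0.1 ± 0.18 (SE, limma adjusted p = 0.442 and 0.791), while the other Lepr probes differed by -0.75 to -0.38. Without Fto -/- replicate 3 the Npy1r difference was -0.2. Mc4r and Ghsr were well above background on 0 arrays.

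**Figure D4:**
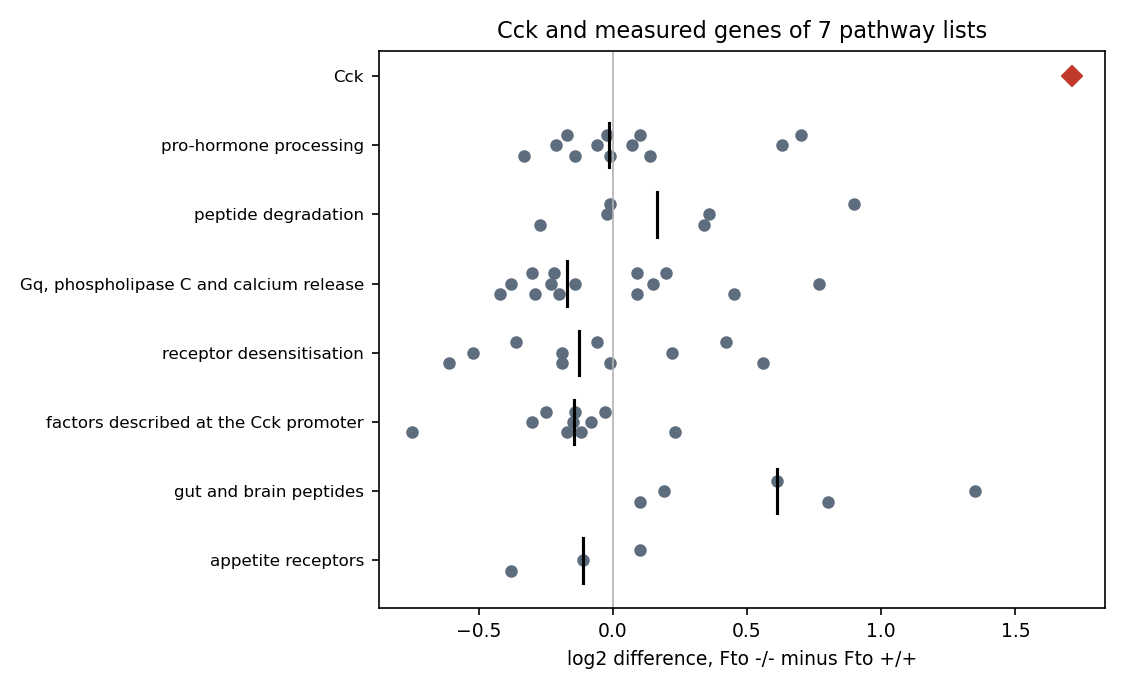
Log2 difference, Fto -/- minus Fto +/+, of Cck (diamond, 1.71) and of the 60 measured genes of 7 pathway lists (circles, with list medians as bars). The list genes lie between -0.75 and 1.35 and 0 passed an adjusted p of 0.05, while Cck is drawn as a description.

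The genes most like Cck over the 8 arrays were ranked by the Pearson correlation of log2 levels among 11975 named genes well above background on every array. The closest were the splicing regulator gene Rbfox1 (0.983), the oxysterol hydroxylase gene Cyp7b1 (0.983), Arhgap4 (0.983), Wdr78 (0.981) and 2900041M22Rik (0.977). The Cck levels fall into 2 separate groups by genotype, so a correlation with them over all arrays includes that gap. All 5 genes had no overlap between genotypes, against 12.1% of all tested probes without overlap. Ranking by that correlation largely fixes this, so nothing is read from it. Their log2 differences were 2.01, 1.4, 0.71, 1.07 and 1.15 in the order above. A correlation of at least 0.9 held for 105 genes (0.877%) and one of -0.9 or less for 212 (1.77%). After each genotype's mean was subtracted, the closest were Mapk8ip1 (0.992), Ttc1 (0.98), Gdf1 (0.973), AI646519 (0.965) and Rps20 (0.965), whose differences between genotypes were 0 to 0.15. Both sets are the highest of 11975 genes over 8 arrays, and chance was not tested. Of the 5 genes 0 were in both sets. Before scaling, Cck, Rbfox1 and Cyp7b1 read 1824, 482.9 and 234.4 on Fto -/- replicate 1, and 457.3, 70.72 and 71.84 on Fto +/+ replicate 4. The 75th percentile of these arrays was 374 and 320. After scaling, the 3 genes stood at 2.28, 0.37 and -0.68 on the first, and at 0.51, -2.18 and -2.16 on the second. The scaled Cyp7b1 level of Fto +/+ replicate 4 was the highest among Fto +/+ arrays, against -2.28 to -2.22 on the others.

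**Figure D5:**
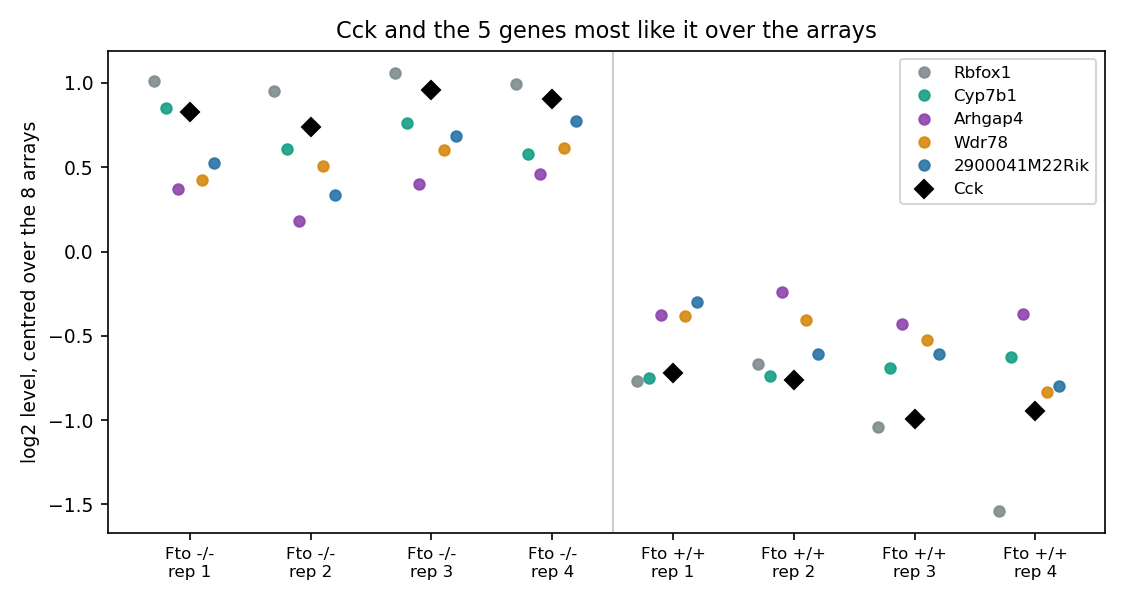
Level of Cck (black diamonds) and of the 5 genes most like it over the arrays (log2, centred over the 8 arrays), with Fto -/- arrays on the left and Fto +/+ arrays on the right. Each gene lies above 0 on all 4 Fto -/- arrays and below 0 on all 4 Fto +/+ arrays.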

How the data were processed

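RNA of 8 thoracic aorta samples was read on 1 array each of an Agilent 1-colour mouse design. The deposited scanner files hold intensity values made with Agilent Feature Extraction 11.0.1.1, background-subtracted per the file headers, with no scaling across arrays found. A deposited table of the whole series gives log2 values. These were centred per probe, as found from the values, and tracked the scanner values with slopes of 0.931 to 0.99 and correlations of 0.96 to 0.98. Column medians were -0.00951 to 0.00487, and no source used here gives their normalisation. Array design annotation is on build mm9, per the file headers; promoter sequences are RefSeq's, on GRCm38.p6. All 8 arrays were on 1 slide with 1 scan date.

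Control spots (3671) were left out, outlier spots (126 to 189 per array) set to missing and spots of a probe averaged. Values are log2 intensity minus that of the array's 75th percentile. Probes were named through RefSeq accessions (28331 of 55681 matched). Probes well above background on at least 4 arrays were tested with limma 3.58.1 in R 4.3.3 (lmFit, eBayes) with Fto -/- minus Fto +/+ as the contrast and p-values adjusted by Benjamini-Hochberg across the 25292. The probe of highest mean stood for a gene. The fit was tested on simulated data. The number of arrays limits the precision.

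The members and lists were chosen with earlier results of these data known. Genes named are the members, Fto, list genes past the threshold or the 2 of smallest p per list, the 5 nearest to Cck by either measure, and markers; Pcsk1, Pcsk2, Pam, Cpe, Creb1, Usf1, Usf2, Fos and the undetected peptide and receptor genes were added after their values were seen. The samples share only a replicate number and were treated as unpaired. Deviations of same-numbered samples correlated at 0.155, -0.024, -0.019 and -0.041, where 0.1 was set as needed for pairing and replicate 1 exceeded it. Differently numbered samples were not compared, so these values cannot exclude pairing. Alternatives were other scalings, background correction, filters, blocks and left-out arrays. The planned normexp on mean signals was run on median signals, since the columns used here hold those. No probe sequence or protein is shown, and some marker genes are not reported here.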

Additional observations from a re-analysis of the deposited data

Results flagged for a closer look

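Within Fto +/+ samples, replicate 2 stood apart in 2 marker lists set beside Cck. Its neuron marker level was -0.43, against 0.03 to 0.07 in the other 3 (gap over range 0.92), and its T cell and thymocyte level was 1.59, against -1.68 to -1.2 (gap over range 0.853). Both exceed Dixon's critical value for 4 samples. Of the neuron markers, Rbfox3 read 8.29 on replicate 2, under the negative control median of 9.96, against 49.4 to 58.1 on the other Fto +/+ arrays. Snap25 (12300) and Gap43 (28) were also dimmest on replicate 2 among Fto +/+ arrays, while Uchl1 (675) and Elavl4 (87.7) were brightest there. The low neuron level was therefore not shared by all markers of the list. Without this array the Cck difference was 1.74. Of 60 groups of 4 arrays examined in this way 2 stood out, where chance alone would give about 1 in 20.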

How the results depend on the processing

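The Cck difference (1.71) stayed positive in all 30 alternatives, and 27 of them moved it by less than the pooled SD of 0.12. It was 1.54 with normexp on median signals, 1.56 within slide row 1 and 1.47 with the Schwann cell level as a covariate, all 3 chosen after seeing the data, and 1.66 to 1.76 without 1 array at a time. The replicate block gave 1.71 for Cck and 132 probes past the threshold, and changed the call of 0 list genes; the samples share only a number. The count of probes past the threshold (419) was 46 with slide row as a block, 96 with no filter on dim probes, 1716 with array weights and 101 to 886 without 1 array at a time (886 without Fto +/+ replicate 4). It was 0 within slide row 1 (2111 at an unadjusted p under 0.05), 1 within row 2, and 0 without the 5 arrays with Rag1 signal (4749 at an unadjusted p under 0.05), where fewer arrays entered the fit. The causes of these shifts were not tested. List genes past the threshold (0) numbered 1 when any probe counted (Mme, with Fto +/+ values below detection), 4 with array weights (Arrb2, Mme, Plcb3 and Prkcd) and 0 to 1 without 1 array at a time (Arrb2 without Fto +/+ replicate 4). The Fto difference (-3.08) was -2.72 without the Rag1 arrays (limma adjusted p = 0.178), -3.02 within row 1 (0.154), -3.33 within row 2 (0.32), -1.96 with normexp on median signals and -3.19 to -2.99 without 1 array at a time. With normexp on median signals the Mme, Ghrl, Scg5 and Crem differences were 0.43, 0.25, 0.41 and 0.14. Without the Rag1 arrays the differences of Arrb2, Rgs4, Plcb3, Tpst2, Ghrl and Crem were -1, 0.21, -0.16, -0.15, 1.39 and 0.11, from 3 arrays. Among genes that did not pass, the sign turned for Lepr (0.1; -0.02 to 0.23 without 1 array at a time, the lowest without Fto +/+ replicate 2, -0.05 without the Rag1 arrays and -0.08 within row 1), Scg5 (-0.29) and Npy1r (0.18), the last 2 without the Rag1 arrays. Cck has 1 probe, so no second probe bears on it, and the receptor signals lie under the detection call, where differences cannot be read.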
